A study of Mus musculus with 12 samples.

Results

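Aminoacyl-tRNA synthetases are the enzymes that join each amino acid to its transfer RNA. They were taken here as every gene whose symbol in the platform's probe annotation follows the names of the synthetase family, a single amino acid letter before "ars" with an optional a, b, 1 or 2, together with Eprs, Ears2 and Pars2. The annotation held 35 such genes on 77 probes. A probe was kept where its detection p-value, the scanner software's test of signal against negative control beads, was under 0.05 on at least 4 of 12 arrays, and each gene was represented by its kept probe with the highest mean. This left 32 synthetases among 11018 tested genes, of which 18 were cytosolic enzymes and 14 had symbols ending in 2, which name mitochondrial enzymes. The 3 genes left out were Yars, detected on 2 arrays, Hars2, detected on 1 array, and Yars2, detected on 0 arrays. Just inside the threshold stood Hars, detected on 5 arrays, and Nars2, detected on 6 arrays. The aspartate enzymes were not analysed here.

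The samples were primary cardiac fibroblasts, the connective tissue cells of the heart that make its matrix, from female C57/BL6 mice of 10 to 16 weeks of age, grown in serum-containing medium. Total RNA was hybridised to Illumina bead arrays in 3 groups of 4: cells given CCN2 at 200 nmol/L for 48 h, cells given GDF15 at 500 nmol/L for 48 h, and untreated control cells. CCN2 is a secreted matricellular protein also called connective tissue growth factor, and GDF15 is a secreted stress cytokine related to the TGF-beta family. The treatment protocol names 48 h for cells with and without a factor, while the control arrays' own labels carry no time. Separate animals or cultures for the 4 arrays of a group are not stated. The p-values below therefore measure the spread between arrays, which may be technical.

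Cells carry a pair of translation systems. The cytosolic synthetases charge the transfer RNAs used on cytosolic ribosomes, and several of them (Eprs, Iars, Lars, Qars, Mars1, Kars and Rars) sit together in a multisynthetase complex held by the scaffold proteins Aimp1, Aimp2 and Eef1e1. The mitochondrial synthetases are also encoded in the nucleus and are imported to charge the transfer RNAs of the mitochondrial genome. Kars and Gars serve both compartments from a single gene, and glutamine in mitochondria is supplied by way of Ears2 and an amidotransferase that includes Gatb, Gatc and Qrsl1. In mammalian cells many cytosolic synthetase genes are known targets of ATF4, the transcription factor of the integrated stress response, which binds C/EBP-ATF response elements and also drives genes of amino acid synthesis and uptake.

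The promoters are shown because that element can be read in the letters before the start of several of these genes. Each line below gives the 100 bases before the annotated start of a synthetase with one of the largest changes after CCN2, and of Asns, asparagine synthetase, a textbook target of ATF4, from RefSeq on GRCm38.p6. They are written 5′ to 3′ in the direction of the gene. Capitals mark TGATGNAA or its reverse complement, the C/EBP-ATF response element, or CACGTG, the palindromic E-box bound by MYC and related factors.
Iars, chr13:49682030-49682129, plus strand: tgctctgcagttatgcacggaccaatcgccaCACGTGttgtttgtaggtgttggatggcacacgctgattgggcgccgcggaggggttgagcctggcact
Eprs, chr1:185362944-185363043, plus strand: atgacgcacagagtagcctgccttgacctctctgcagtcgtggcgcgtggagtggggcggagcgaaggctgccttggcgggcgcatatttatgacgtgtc
Tars, chr15:11399659-11399758, minus strand: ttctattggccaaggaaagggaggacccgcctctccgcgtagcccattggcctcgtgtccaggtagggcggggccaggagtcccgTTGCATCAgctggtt
Kars, chr8:112011355-112011454, minus strand: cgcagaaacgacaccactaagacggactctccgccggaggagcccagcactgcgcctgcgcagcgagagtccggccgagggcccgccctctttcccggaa
Mars1, chr10:127311787-127311886, minus strand: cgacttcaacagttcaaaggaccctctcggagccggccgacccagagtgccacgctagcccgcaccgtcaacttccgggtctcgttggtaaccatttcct
Ears2, chr7:122067087-122067186, minus strand: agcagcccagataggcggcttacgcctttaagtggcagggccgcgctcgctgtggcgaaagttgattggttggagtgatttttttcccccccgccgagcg
Asns, chr6:7693210-7693309, minus strand: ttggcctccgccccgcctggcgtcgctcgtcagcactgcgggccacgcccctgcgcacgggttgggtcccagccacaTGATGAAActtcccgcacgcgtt
Stretches that hold matches to the response element in Iars, just past its start, and in Aars and Gars were chosen after the matches were seen and read as follows.
Iars, chr13:49682126-49682155, plus strand: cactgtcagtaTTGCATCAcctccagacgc
Aars, chr8:111033692-111033751, plus strand: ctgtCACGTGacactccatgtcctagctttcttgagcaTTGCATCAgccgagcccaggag
Gars, chr6:55037941-55038000, plus strand: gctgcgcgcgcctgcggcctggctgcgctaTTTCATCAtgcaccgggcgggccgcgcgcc

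Both motifs were searched on both strands in the RefSeq windows of 250 bases before to 50 bases after each start, and the motifs do not overlap each other. A window was matched for 11 of the 18 cytosolic and 13 of the 14 mitochondrial synthetases. Cars, Hars, Lars, Nars, Rars, Vars, Wars and Pars2 were not matched. TGATGNAA stood in 4 of the 11 cytosolic windows (36.4%), those of Aars, Gars, Iars and Tars, and in 0 of the 13 mitochondrial windows. Over all 27025 genes with a window it stood in 4.51%. In other lists it stood in 5 of 16 integrated stress response genes (31.2%), 3 of 11 amino acid transporters (27.3%) and 1 of 12 amino acid synthesis enzymes (8.33%, Asns). It stood in 1 of 16 cytosolic and 0 of 11 mitochondrial translation factors. Counted from the start, with negative numbers before it, the match lay at -15 to -8 in Tars, at -30 to -23 in Gars and at 8 to 15 in Iars. Aars held matches at -112 to -105 and at 10 to 17, and Asns at -23 to -16. CACGTG stood in 4 of the 11 cytosolic windows (36.4%), those of Aars, Farsb, Iars and Tars, and in 1 of the 13 mitochondrial windows, that of Ears2. Over all genes with a window it stood in 8.09%. Cytosolic translation factors held it at a share like that of the cytosolic synthetases, in 5 of 16 (31.2%). Eprs, Kars and Mars1, which had some of the largest changes after CCN2, held neither string in these windows.

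The arrays of a group correlated at 0.987 or more. Between 18009 and 18979 probes were detected on CCN2 arrays, 19004 to 19481 on GDF15 arrays and 19211 to 19691 on control arrays. Fibroblast genes such as Pdgfra, Col1a1 and Dcn were detected on all arrays, as were the macrophage genes C1qa, Csf1r and Tyrobp. Most cardiomyocyte genes were not, and 3 of 11 such genes with a probe were tested. Macrophage, endothelial and mural cell markers moved with the treatments. With CCN2, 13 of 16 macrophage, 10 of 11 endothelial and 10 of 11 pericyte and smooth muscle markers were lower than in control, when 30.2% of all tested genes were. With GDF15, 8 of 16 macrophage, 1 of 11 endothelial and 6 of 11 pericyte and smooth muscle markers were lower, when 12.7% of all tested genes were. The mean log2 intensity of the macrophage markers was 7.85 to 7.98 on CCN2 arrays, 9.27 to 9.37 on GDF15 arrays and 9.74 to 9.75 on control arrays. Of 14 fibroblast markers, 8 were lower and 1 was higher after CCN2, and 3 were lower after GDF15. The largest log2 changes among them after CCN2 were those of Tcf21 (-2.69), Dpt (-2.31), Lum (-2.02) and Thy1 (-1.55). Pdgfra, Col1a1 and Dcn had no call after CCN2. In such bulk RNA, fewer cells of a type and less RNA per cell cannot be told apart, and the part of these shifts in the synthetase results was not tested.

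Cells given CCN2 had higher transcript levels of nearly all cytosolic synthetases, while most mitochondrial synthetases showed no detected change. After CCN2, 16 of 18 cytosolic synthetases, 1 of them (Hars) not detected in control, were higher than in control and 0 were lower, at an adjusted p under 0.05 in limma's moderated test with Benjamini-Hochberg adjustment over all 20445 tested probes. Over all tested genes, 25.7% were called higher and 30.2% lower in the same comparison. The log2 changes of the cytosolic enzymes ran from 0.11 to 0.86 with a median of 0.39, while the median of all tested genes was -0.02. For 16 of the 18, every CCN2 array lay above every control array, which held for 24.5% of all tested genes. The changes were moderate in size: the largest was 1.82-fold.

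Iars, the isoleucine enzyme, had normalised log2 intensities of 9.56, 9.75, 9.68 and 9.81 on CCN2 arrays, 9.17, 9.09, 9.14 and 9.50 on GDF15 arrays and 8.81, 8.91, 8.72 and 8.90 on control arrays. The 3 groups did not overlap, with CCN2 highest and control lowest. Its log2 change after CCN2 was 0.86 ± 0.10 (SE, n = 4 arrays a group), the largest among the synthetases (limma adjusted p = 1.13e-06). Eprs, a single protein that charges both glutamate and proline transfer RNAs, had log2 intensities of 8.29, 8.32, 8.45 and 8.59 on CCN2 arrays, 8.21, 8.07, 7.80 and 8.06 on GDF15 arrays and 7.35, 7.40, 7.93 and 7.61 on control arrays. Every CCN2 array lay above every control array, and control array 3 stood above the other 3 control arrays and within the GDF15 range. The change after CCN2 was 0.84 ± 0.12 (limma adjusted p = 2.25e-05). Tars, the threonine enzyme, had log2 intensities of 7.22, 7.60, 7.70 and 7.84 on CCN2 arrays, 7.08, 7.25, 7.10 and 7.56 on GDF15 arrays and 6.66, 6.90, 6.68 and 6.77 on control arrays. Both treated groups lay above the control arrays, and they overlapped each other. The change after CCN2 was 0.84 ± 0.13 (limma adjusted p = 3.55e-05).

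Kars, the lysine enzyme, had log2 intensities of 8.37, 8.25, 8.45 and 8.24 on CCN2 arrays, 7.77, 7.43, 7.78 and 7.54 on GDF15 arrays and 7.40, 7.71, 7.41 and 7.56 on control arrays. Here the CCN2 arrays stood alone, since the GDF15 and control arrays overlapped over most of their range. The change after CCN2 was 0.81 ± 0.10 (limma adjusted p = 3.76e-06). Nars, the asparagine enzyme, had 9.65, 9.62, 9.66 and 9.65 on CCN2 arrays, 9.14, 9.09, 9.08 and 9.04 on GDF15 arrays and 8.75, 8.92, 8.97 and 8.82 on control arrays, all as log2 intensities. Its replicates were close together, the groups did not overlap, and the change after CCN2 was 0.78 ± 0.08 (limma adjusted p = 1.75e-07). Rars, the arginine enzyme, had log2 intensities of 9.59, 9.29, 9.41 and 9.36 on CCN2 arrays, 8.70, 8.82, 8.83 and 8.52 on GDF15 arrays and 8.86, 8.79, 8.61 and 8.81 on control arrays. Only the CCN2 arrays of Rars stood apart, by 0.65 ± 0.10 over control (limma adjusted p = 2.48e-05). Mars1, the methionine enzyme, had log2 intensities of 8.30, 8.43, 8.40 and 8.55 on CCN2 arrays, 8.06, 7.93, 8.05 and 7.84 on GDF15 arrays and 7.87, 7.80, 7.86 and 7.92 on control arrays. Its CCN2 arrays lay above all others, and its change after CCN2 was 0.56 ± 0.08 (limma adjusted p = 2.45e-05).

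**Figure D1:**
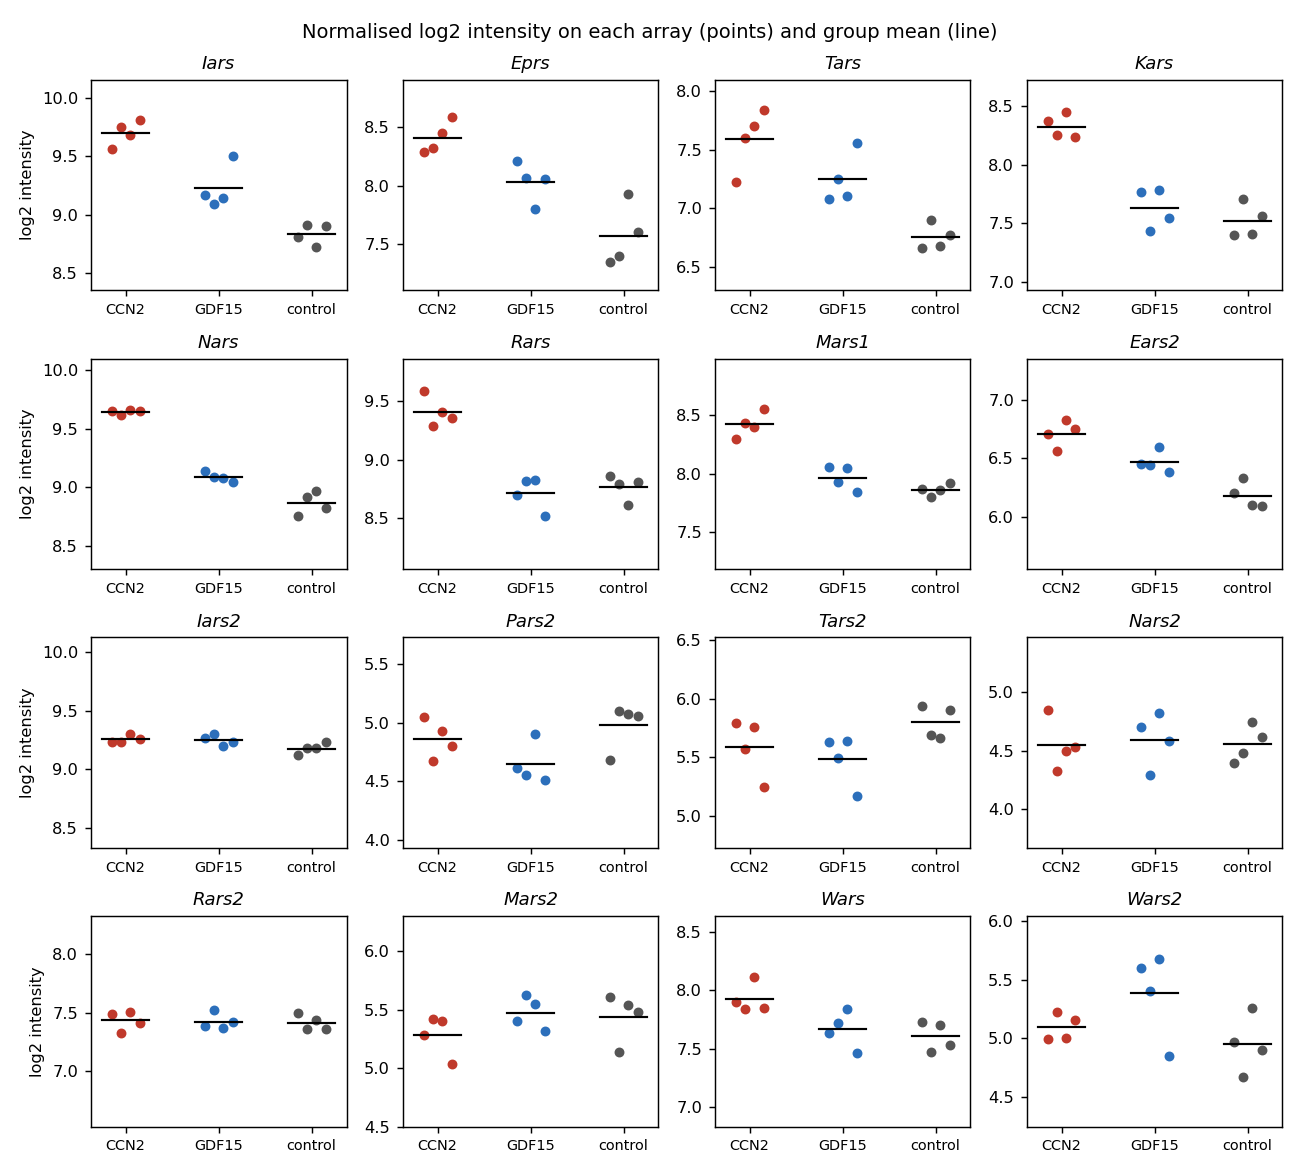
Normalised log2 intensity (vertical axis) of 16 synthetases on each of the 4 CCN2, 4 GDF15 and 4 control arrays; points are arrays and lines are group means. Iars, Eprs, Tars, Kars, Nars, Rars and Mars1 show CCN2 arrays above the control arrays, while Iars2, Rars2 and Nars2 show overlapping groups.

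The other cytosolic enzymes moved less. Farsb, the beta subunit of the phenylalanine enzyme, was higher by 0.51 ± 0.09, Lars (leucine) by 0.40 ± 0.08 and Aars (alanine) by 0.39 ± 0.09 on the log2 scale after CCN2. Gars (glycine), Qars (glutamine) and Wars (tryptophan) were higher by 0.37 ± 0.08, 0.34 ± 0.08 and 0.32 ± 0.10, with limma adjusted p of 0.00113, 0.00147 and 0.0135. Vars (valine) and Sars (serine) had the smallest changes that passed among enzymes detected in both groups, 0.29 ± 0.10 and 0.27 ± 0.09, with limma adjusted p of 0.022 and 0.0231. The calls of Sars, Vars, Hars and Wars were each lost when at least 1 array was left out, with limma adjusted p then between 0.0514 and 0.0802, and when arrays were scaled to a common median in place of quantile normalisation. Hars (histidine) was detected on 3 of 4 CCN2 arrays and on 0 of 4 control arrays, so it passed the detection filter only through treated arrays, and it was at least 1.12-fold higher with CCN2. This bound sets the treated mean against the lowest signal detected on each control array. The fit's limma adjusted p for Hars was 0.0164, and it was 0.0544 with the authors' values, 0.0537 without background correction and 0.0693 with an offset of 50, so that the call was lost in each of those 3.

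The cytosolic enzymes that missed the threshold were Cars and Farsa. Cars, the cysteine enzyme, had log2 intensities of 5.12, 5.35, 5.49 and 5.18 on CCN2 arrays, 5.58, 4.57, 5.21 and 4.76 on GDF15 arrays and 4.85, 4.67, 5.15 and 5.24 on control arrays. The groups overlapped, and the change after CCN2 was 0.31 ± 0.18 (limma adjusted p = 0.173). Other Cars probes, drawn from the RefSeq transcript, were detected on 1 and 0 arrays and were not kept. Farsa, the catalytic alpha subunit of the phenylalanine enzyme, showed 0.11 ± 0.11 (limma adjusted p = 0.42), beside the 0.51 of its partner subunit Farsb. Both are dim probes: Farsa averaged 4.87 on CCN2 arrays, 4.75 on GDF15 arrays and 4.76 on control arrays. Further probes of the same genes had the same direction: 18 other tested probes of 12 cytosolic genes all had positive changes after CCN2 (0.09 to 0.73), and 15 of them were called higher.

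Of the 14 mitochondrial synthetases, CCN2 left 12 without a call. Ears2 was higher and Vars2 was lower. Their median log2 change was -0.06, within a range of -0.34 to 0.53. With arrays scaled to a common median in place of quantile normalisation, which moved the median of all genes to -0.14, Vars2 and 5 others (Cars2, Fars2, Mars2, Sars2 and Tars2) were called lower and Ears2 was still called higher. Ears2, the mitochondrial glutamate enzyme, had log2 intensities of 6.71, 6.56, 6.83 and 6.75 on CCN2 arrays, 6.45, 6.44, 6.60 and 6.38 on GDF15 arrays and 6.20, 6.33, 6.10 and 6.09 on control arrays. Both treated groups lay above all control arrays. The change after CCN2 was 0.53 ± 0.09 (limma adjusted p = 8.52e-05). Vars2, the mitochondrial valine enzyme, had log2 intensities of 6.24, 6.49, 6.39 and 6.64 on CCN2 arrays, 6.65, 6.65, 6.79 and 6.47 on GDF15 arrays and 6.84, 6.78, 6.72 and 6.77 on control arrays. Every CCN2 array was below every control array, and the change was -0.34 ± 0.10 (limma adjusted p = 0.00685). The 7 other tested probes of 5 mitochondrial genes ranged from -0.20 to 0.15 after CCN2, and 0 of them were called.

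The isoleucine partner Iars2 had log2 intensities of 9.23, 9.23, 9.30 and 9.26 on CCN2 arrays, 9.27, 9.30, 9.20 and 9.23 on GDF15 arrays and 9.12, 9.18, 9.18 and 9.23 on control arrays. All 12 values lay close together, unlike those of Iars on the same arrays. The arginine partner Rars2 had 7.49, 7.33, 7.51 and 7.41 on CCN2 arrays, 7.39, 7.52, 7.37 and 7.42 on GDF15 arrays and 7.50, 7.36, 7.44 and 7.36 on control arrays. The methionine partner Mars2 had 5.28, 5.42, 5.40 and 5.04 on CCN2 arrays, 5.40, 5.63, 5.55 and 5.32 on GDF15 arrays and 5.61, 5.14, 5.54 and 5.48 on control arrays. In both, the 3 groups overlapped. The threonine partner Tars2 had 5.79, 5.57, 5.76 and 5.24 on CCN2 arrays, 5.63, 5.49, 5.64 and 5.17 on GDF15 arrays and 5.94, 5.69, 5.66 and 5.90 on control arrays. Its CCN2 and control arrays overlapped, while its GDF15 arrays all lay below the control arrays. Nars2, the asparagine partner, was detected on 1 CCN2 array, 3 GDF15 arrays and 2 control arrays, and its log2 intensities were 4.85, 4.33, 4.50 and 4.53 with CCN2, 4.70, 4.29, 4.82 and 4.58 with GDF15 and 4.40, 4.48, 4.75 and 4.62 in control. Pars2, the proline partner of Eprs, had 5.05, 4.67, 4.93 and 4.80 on CCN2 arrays, 4.61, 4.55, 4.90 and 4.51 on GDF15 arrays and 4.68, 5.10, 5.07 and 5.06 on control arrays. Its groups overlapped, with most GDF15 arrays low. None of these 6 partners was called after CCN2, where their log2 changes were 0.08 (Iars2), 0.02 (Rars2), -0.16 (Mars2), -0.21 (Tars2), -0.01 (Nars2) and -0.12 (Pars2). Under median scaling the signs of Iars2 and Rars2 turned.

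After CCN2 the remaining mitochondrial enzymes showed small log2 changes with no call: Wars2 (tryptophan) 0.14, Aars2 (alanine) 0.13, Lars2 (leucine) -0.03, Cars2 (cysteine) -0.08, Sars2 (serine) -0.19 and Fars2 (phenylalanine) -0.23. Fars2 had the lowest limma adjusted p of these, 0.0649. The mitochondrial probes were dimmer than the cytosolic ones, with a median log2 intensity of 5.91 against 8.19, and the offset of 16 added before taking logs makes the changes of dim probes smaller. Among the members with a mean log2 intensity of 6 or more, 15 of 15 cytosolic enzymes were higher after CCN2 with a median change of 0.51. In the same range 1 of 7 mitochondrial enzymes was higher and 1 was lower, with a median change of -0.03. For comparison, 25.7% of all tested genes, at any intensity, were called higher and 30.2% lower. The cut did not match brightness between the compartments. The dimmest of these cytosolic enzymes, Tars, averaged 7.20, while Cars2, Ears2, Vars2 and Lars2 averaged 6.20, 6.45, 6.62 and 6.78. The part of brightness in the split by compartment was not tested.

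**Figure D2:**
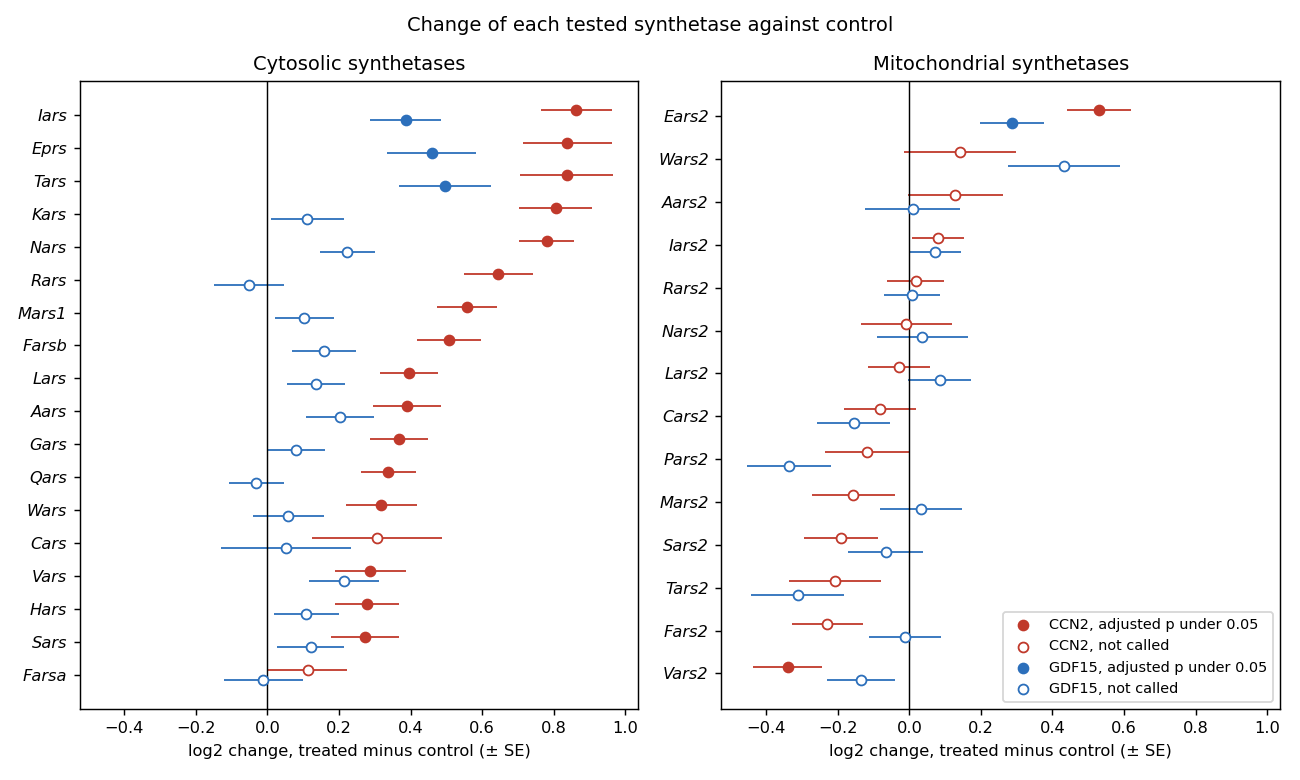
Log2 change against control (horizontal axis, ± SE) of 18 cytosolic and 14 mitochondrial synthetases after CCN2 (red) and GDF15 (blue), with filled points for an adjusted p under 0.05. All 18 cytosolic changes after CCN2 are above 0 and 16 are filled, while the mitochondrial changes lie on both sides of 0 with Ears2 and Vars2 filled.

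Enzymes for the same amino acid in the different compartments could be compared on the same arrays. In 15 such pairs of tested genes, of which Eprs and Fars2 each enter 2, the change after CCN2 was larger for the cytosolic enzyme in 15 of 15, by a median of 0.63 on the log2 scale. In 10 of the 15, the log ratio of the cytosolic to the mitochondrial probe on every CCN2 array exceeded that on every control array. The share of other gene pairs that separate in this way was not computed, so this count has no background beside it. Tars against Tars2 differed most, by 1.04 ± 0.26, followed by Eprs against Pars2 with 0.96 ± 0.16. Nars against Nars2 differed by 0.79 ± 0.12 and Iars against Iars2 by 0.78 ± 0.07. The smallest differences were those of Wars against Wars2 (0.18 ± 0.14) and Aars against Aars2 (0.26 ± 0.12), where the arrays overlapped. Eprs also pairs with Ears2, which rose too, and that difference was 0.31 ± 0.19 with overlapping arrays.

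**Figure D3:**
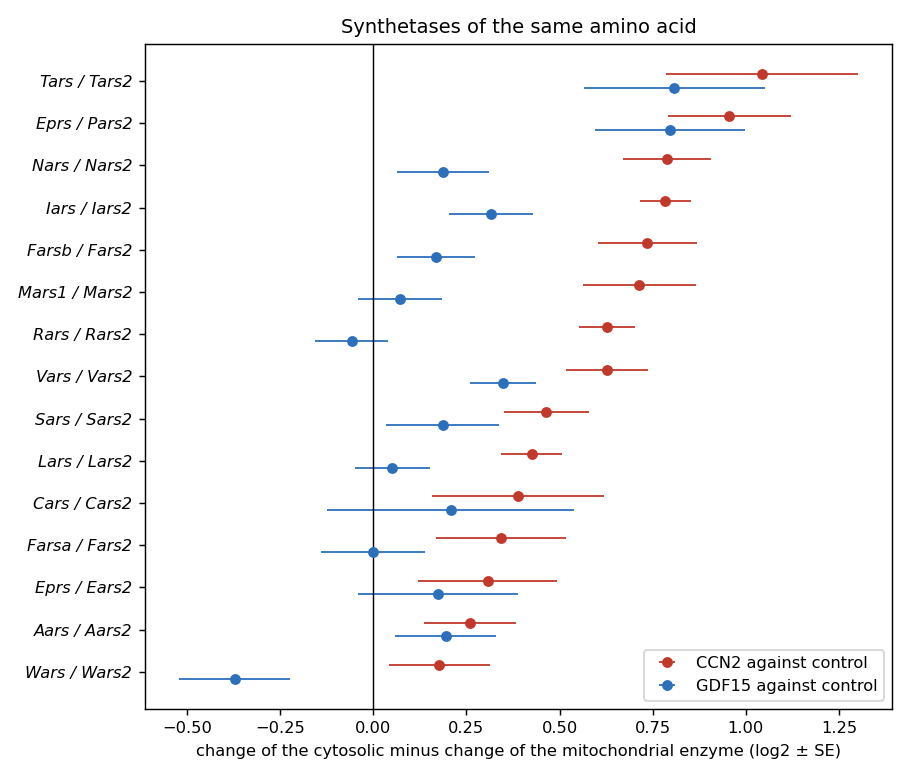
Change of the cytosolic enzyme minus change of the mitochondrial enzyme for the same amino acid (horizontal axis, log2 ± SE) in 15 pairs, after CCN2 (red) and GDF15 (blue), against control. All 15 red points are right of 0, between 0.18 and 1.04, and 12 of 15 blue points are.

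GDF15 was compared with the same control arrays, so the results of both treatments share them. After GDF15, 3 of 18 cytosolic synthetases were higher and 0 were lower, when 9.76% of all tested genes were called higher and 12.7% lower. At an unadjusted p under 0.05, 6 of the 18 passed, a share close to the 33.5% of all tested genes. For 3 of the 18, Tars, Iars and Nars, every GDF15 array lay above every control array, which held for 10.5% of all tested genes. The median log2 change of the cytosolic enzymes was 0.12, in a range of -0.05 to 0.50, against -0.02 for all tested genes. With 18 enzymes, a count of 3 stands near the background share.

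The enzymes called after GDF15 were Tars, by 0.50 ± 0.13 (limma adjusted p = 0.0112), Eprs, by 0.46 ± 0.12 (limma adjusted p = 0.0143), and Iars, by 0.39 ± 0.10 (limma adjusted p = 0.00994). These had also been the enzymes with the largest changes after CCN2. For Eprs, control array 3 (7.93) was above GDF15 array 11 (7.80), and the limma adjusted p became 0.0584 without control array 1 and 0.055 without control array 2. Nars missed the threshold, with 0.22 ± 0.08 (limma adjusted p = 0.0513). It passed under 6 of the 8 other settings, with limma adjusted p from 0.0108 to 0.0355, and without control array 3 (0.039) or GDF15 array 12 (0.0493), while under median scaling the adjusted p was 0.285. Kars, Rars and Mars1, among the largest after CCN2, showed 0.11 ± 0.10, -0.05 ± 0.10 and 0.10 ± 0.08 after GDF15 with no call. The remaining cytosolic enzymes lay between -0.03 (Qars) and 0.21 (Vars), none of them called. Of 18 other tested probes of 12 cytosolic genes, 13 had the sign of the chosen probe after GDF15 and 2 were called higher. Other Eprs probes gave 0.54 (limma adjusted p = 0.00069) and 0.15 (limma adjusted p = 0.54). Other Iars probes gave 0.32 and 0.23 (limma adjusted p = 0.0286 and 0.151), and the other Tars probe gave 0.39 (limma adjusted p = 0.0718).

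Of the mitochondrial enzymes, 1 of 14 was higher after GDF15 and 0 were lower, and 4 had an unadjusted p under 0.05, again close to the 33.5% of all tested genes. The one called, Ears2, was higher by 0.29 ± 0.09 (limma adjusted p = 0.0322), and the call was lost in 6 of the 12 fits that left out 1 array, with limma adjusted p from 0.0552 to 0.0946, and under median scaling. The median of the 14 was 0.01, and -0.06 when arrays were scaled to a common median, so it had no settled sign. Wars2, the mitochondrial tryptophan enzyme, had log2 intensities of 4.99, 5.22, 5.00 and 5.16 on CCN2 arrays, 5.60, 5.40, 5.68 and 4.85 on GDF15 arrays and 4.97, 4.67, 5.26 and 4.90 on control arrays. The GDF15 array 12 stood with the control arrays while the other 3 lay above them. The change was 0.43 ± 0.16 (limma adjusted p = 0.0637), and 0.61 without array 12 (limma adjusted p = 0.00222). Pars2 and Tars2 had negative changes of -0.34 ± 0.12 and -0.31 ± 0.13 that did not pass (limma adjusted p = 0.0528 and 0.108). Both passed under median scaling (limma adjusted p = 0.025 and 0.0297). Pars2 also passed without control array 1, GDF15 array 11, CCN2 array 5 or CCN2 array 6 (limma adjusted p = 0.0141, 0.0189, 0.0494 and 0.0491). The other tested Pars2 probe gave -0.10 with no call. In the pairs, the change was larger for the cytosolic enzyme in 12 of 15 after GDF15, by a median of 0.19. It was smaller for Wars against Wars2, at -0.37 ± 0.15.

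Cytosolic Wars is also known as an interferon-gamma target, and is therefore given with other genes of that response. Its log2 intensities were 7.90, 7.84, 8.11 and 7.85 on CCN2 arrays, 7.63, 7.72, 7.84 and 7.46 on GDF15 arrays and 7.73, 7.47, 7.70 and 7.53 on control arrays. Its change of 0.32 after CCN2 was below the cytosolic median of 0.39, and after GDF15 it was 0.06 ± 0.10 with no call. The other tested Wars probes changed by 0.09, 0.47 and 0.49 after CCN2, so its place below the median depends on the probe. When 25.7% of all tested genes were called higher after CCN2 and 30.2% lower, other genes of the interferon-gamma response were higher in 11 of 12 tested and lower in 1, Irf8. Among them Cxcl10, a chemokine, was higher by 3.28 ± 0.12, Gbp2 by 2.67 ± 0.10 and Gbp3, likewise a guanylate-binding protein, by 2.44 ± 0.10. Cxcl9, a chemokine detected on 0 control arrays, was at least 4.29-fold higher. After GDF15, 6 of these 12 genes were higher, including Gbp3 by 1.84 ± 0.10, when 9.76% of all tested genes were.

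The treatments were also set against each other, at their different doses. With GDF15 the cytosolic synthetases were lower than with CCN2: 12 of 18 were called lower and 0 higher, while 22.0% of all tested genes were called lower and 23.8% higher. All 18 changes were negative (Vars turned to 0.01 under median scaling), with a median of -0.31, and for 11 of 18 every GDF15 array lay below every CCN2 array, as for 20.1% of all tested genes. For 15 of the 18 the GDF15 mean lay between the means of the CCN2 and control arrays, though Cars, Vars and Wars left that order under median scaling. Rars (-0.70 ± 0.10, limma adjusted p = 1.61e-05) and Kars (-0.69 ± 0.10, limma adjusted p = 3.03e-05) differed most, followed by Nars (-0.56), Iars (-0.48) and Mars1 (-0.45). Eprs, Qars, Farsb, Tars, Gars, Lars and Wars were lower by smaller amounts, between -0.38 and -0.26. The calls of Tars (limma adjusted p = 0.045) and Wars (limma adjusted p = 0.0473) were lost in 9 and 10 of the 12 fits that left out 1 array, with limma adjusted p then from 0.0504 to 0.151. Both were also lost under median scaling, without the detection filter and with only these groups in the fit, and Tars with the mean of all its probes. Eprs was lost without CCN2 array 8 or GDF15 array 11, under median scaling and without the detection filter. Lars was lost without CCN2 array 8 or GDF15 array 9 and under median scaling. Those with no call were Cars, Aars, Hars, Sars, Farsa and Vars, the last at -0.07 ± 0.10. Other Vars probes gave -0.28 and -0.20 (limma adjusted p = 0.0402 and 0.23), and another Sars probe gave -0.45 (limma adjusted p = 0.00567). Sars was also called with the mean of all its probes (-0.30, limma adjusted p = 0.00968). Other Wars probes gave -0.43, -0.42 and -0.13, and other Eprs probes gave -0.48 and 0.09. Of 18 other tested probes of 12 cytosolic genes, 16 had the sign of the chosen probe and 13 were called lower. Among the mitochondrial enzymes 1, Ears2, was lower with GDF15 than with CCN2, at -0.25 ± 0.09 (limma adjusted p = 0.0365), and 0 were higher, with 3 of 14 at an unadjusted p under 0.05, against 52.9% of all tested genes. The Ears2 call was lost in 6 fits that left out 1 array (limma adjusted p 0.062 to 0.109), with only these groups in the fit (0.0562) and under median scaling (0.36). The median of the 14 was 0.02.

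Of 9 tested complex partners and editing factors, 3 were higher and 2 lower after CCN2, with a median of -0.02, close to the 25.7% and 30.2% of all tested genes. The complex scaffolds Aimp2 and Eef1e1 were higher by 0.90 ± 0.12 (limma adjusted p = 4.44e-06) and 0.65 ± 0.09 (limma adjusted p = 1.4e-05), and Aimp1 showed -0.02 ± 0.11 (limma adjusted p = 0.912). Xpot, which exports transfer RNA out of the nucleus, was higher by 0.53 ± 0.10. Aarsd1, which removes serine mischarged to alanine transfer RNA, had a log2 change of -0.80 ± 0.10, and Dtd2, a D-aminoacyl-tRNA deacylase, had a log2 change of -0.38 ± 0.10. After GDF15, Xpot was higher by 0.31 ± 0.10 and Aarsd1 had a change of -0.31 ± 0.10, as the only calls in this group of 9. The group also counts Tarsl2, threonyl-tRNA synthetase-like 2, whose symbol the rule for the synthetases does not match. Tarsl2 had no call, at -0.25 ± 0.12 after CCN2 (limma adjusted p = 0.105) and -0.25 ± 0.12 after GDF15 (limma adjusted p = 0.186).

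Factors that act after charging were tested too. Of 22 tested cytosolic translation factors, 8 were higher and 3 lower after CCN2, with a median of 0.15, beside 25.7% and 30.2% of all tested genes, and 1 was higher and 1 lower after GDF15. Eif4a2, an RNA helicase of initiation, had a log2 change of -0.90 ± 0.09 after CCN2 and -0.52 ± 0.09 after GDF15. Eif6, a factor of large ribosomal subunit assembly, was higher by 0.71 ± 0.09 after CCN2 and by 0.27 ± 0.09 after GDF15. Eif3b and Eif5a were higher by 0.56 and 0.51 after CCN2. Of 13 mitochondrial translation factors, 3 were higher and 2 lower after CCN2 with a median of 0.04, no larger shares than among all tested genes, and 0 were called after GDF15. Gatc and Gatb, subunits of the amidotransferase that acts on the product of Ears2, had log2 changes of -0.63 ± 0.10 and -0.38 ± 0.09 after CCN2, where Ears2 itself was higher. The elongation factors Tufm and Gfm2 were higher by 0.36 and 0.28.

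Regulators and targets of the integrated stress response, the response in which ATF4 acts, were mostly higher after CCN2. Not all of them are targets of ATF4, and its part in these changes was not tested. Of 18 such genes tested, 14 were higher and 2 lower, with a median of 0.63, beside 25.7% and 30.2% of all tested genes. After GDF15 6 were higher and 0 lower with a median of 0.11, beside 9.76% and 12.7% of all tested genes. Atf4 had log2 intensities of 11.78, 11.65, 11.61 and 11.91 on CCN2 arrays, 11.25, 11.33, 11.12 and 11.54 on GDF15 arrays and 11.02, 11.10, 11.10 and 11.14 on control arrays. The CCN2 arrays stood above all others, by 0.65 ± 0.10 over control (limma adjusted p = 2.48e-05). Ddit4, an inhibitor of mTORC1 signalling, was higher by 1.88 ± 0.08, Vldlr, a lipoprotein receptor, by 1.61 ± 0.10, Ppp1r15a, which recruits a phosphatase to eIF2-alpha, by 1.14 ± 0.09 and the transcription factor Cebpb by 1.05 ± 0.08. The lower ones were the transcription factors Atf3 (-0.66 ± 0.11) and Atf5 (-0.29 ± 0.08). Those with no call were Ddit3, also called CHOP, at 0.00 ± 0.12 (limma adjusted p = 0.993), and Eif2ak1, at 0.13 ± 0.10 (limma adjusted p = 0.271). After GDF15 Cebpb was higher by 0.78 ± 0.08 and Ddit4 by 0.62 ± 0.08.

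Of 14 tested enzymes of amino acid synthesis, 10 were higher and 2 lower after CCN2, with a median of 0.72, beside 25.7% and 30.2% of all tested genes. After GDF15 3 were higher and 1 lower, with a median of 0.20, beside 9.76% and 12.7% of all tested genes. Asns, whose promoter is printed above, had log2 intensities of 11.47, 11.68, 11.61 and 11.69 on CCN2 arrays, 11.13, 11.20, 11.10 and 11.09 on GDF15 arrays and 10.79, 10.87, 10.99 and 10.82 on control arrays. The groups did not overlap and stood in the same order as those of Iars and Nars. The change of Asns after CCN2 was 0.75 ± 0.08 (limma adjusted p = 6.26e-07) and after GDF15 0.27 ± 0.08 (limma adjusted p = 0.0284). Bcat1, which transaminates branched-chain amino acids, was higher by 2.05 ± 0.11 after CCN2, and the folate-cycle enzymes Aldh1l2 and Shmt2 of mitochondria by 1.17 and 1.13. Cth, which makes cysteine, was detected on 0 control arrays and was at least 2.75-fold higher. The cytosolic counterpart Shmt1 went the other way, at -0.59 ± 0.11 after CCN2 and -0.53 ± 0.11 after GDF15.

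Among 16 tested amino acid transporters, 8 were higher and 5 lower after CCN2, beside 25.7% and 30.2% of all tested genes. The share lower was thus close to that of all tested genes. After GDF15 5 were higher and 0 lower, beside 9.76% and 12.7% of all tested genes. Slc7a11, the cystine-glutamate exchanger, was higher by 5.20 ± 0.10 after CCN2 and 1.30 ± 0.10 after GDF15, and Slc7a2, a carrier of arginine and lysine, by 4.11 ± 0.09 and 0.32 ± 0.09. Slc1a3, a glutamate carrier, had a log2 change of -2.80 ± 0.10 after CCN2, and Slc43a1, a carrier of neutral amino acids, -1.45 ± 0.10. The transporters thus ran over a wider range than the synthetases and in both directions.

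**Figure D4:**
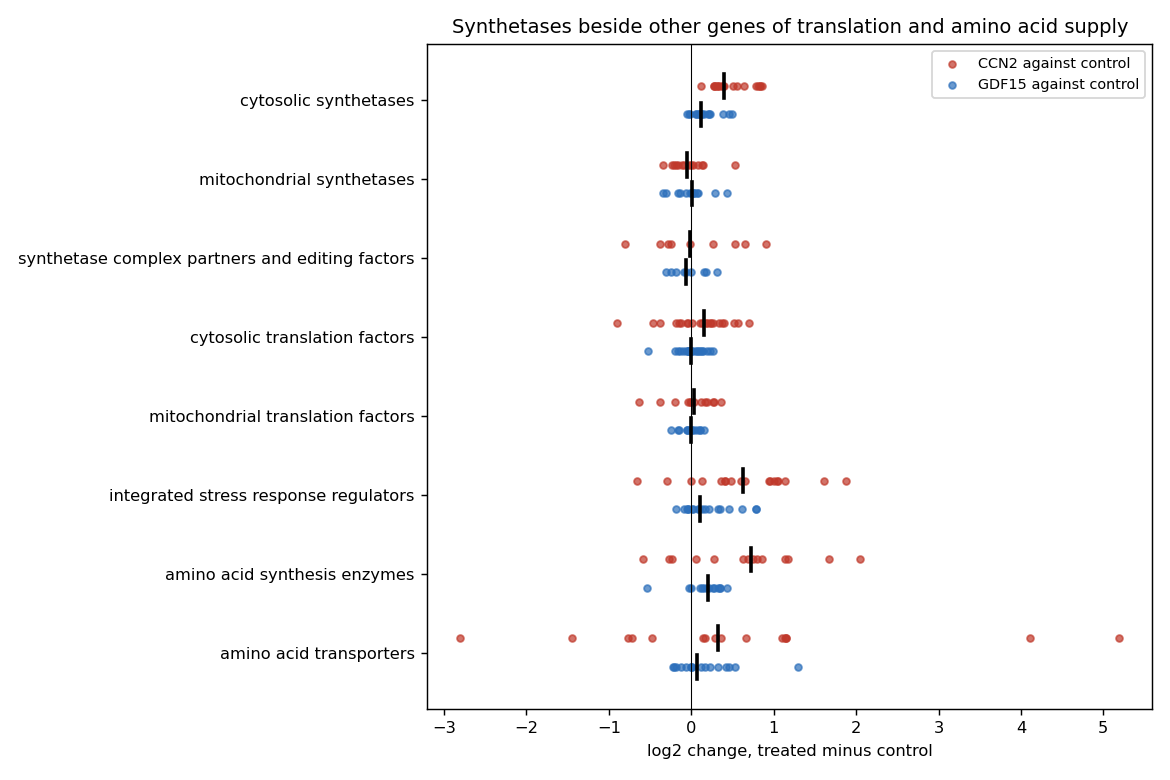
Log2 change against control (horizontal axis) of each tested gene in 8 groups of translation and amino acid supply genes, after CCN2 (red) and GDF15 (blue); black bars are medians. The cytosolic synthetases form a narrow cluster between 0.11 and 0.86 after CCN2, while the transporters run from -2.80 to 5.20.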

How the data were processed

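The authors' deposited non-normalized table holds, per the file headers, 1 intensity and 1 detection p-value per array for 45281 probes, and GenomeStudio 2010.1 is named in the submitters' processing notes. The authors also deposited processed intensities on a linear scale, whose array medians (42.4) are nearly equal; the method is not given in the sources used here, and they were put on a log2 scale after adding the offset of 16. The intensities were background corrected by normexp with the detection p-values, quantile normalised with an offset of 16 and put on a log2 scale with neqc in limma 3.58.1 under R 4.3.3. Probes with a detection p under 0.05 on at least 4 arrays (20445) were kept. Group means over all 12 arrays (9 residual degrees of freedom) were compared with lmFit and eBayes, and p-values were adjusted by Benjamini-Hochberg over all kept probes. Groups came from titles and treatment labels. Gene symbols came from the platform annotation, where 34885 probes had 1 symbol, 18 had several and 10378 had none. The fit was tested on simulated data. The synthetases, the other gene lists and the tests were chosen with earlier results of these data known. All synthetases that matched the symbol rule were named. Array values were given for the up to 8 largest calls per treatment, their partners, Wars and Wars2. In other lists up to 4 of the largest calls were named. Genes of note to the text (Aimp1, Atf4, Ddit3, Eif2ak1, Asns, Shmt1, Irf8) were named after their values were seen. The array values of Cars and Vars2 were likewise added after they were seen. No array pair held identical values. The number of arrays limits the precision. Alternatives were the authors' values, median scaling, no background correction, an offset of 50, other detection filters, the mean of all probes, the 2 compared groups alone and each array left out.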

Additional observations from a re-analysis of the deposited data

Results flagged for a closer look

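In 3 of the 96 sets of 4 arrays (32 synthetases in 3 groups), 1 array stood apart from the other 3 by more than Dixon's critical value, and chance alone gives about 1 set in 20. Sars had a log2 intensity of 8.32 on CCN2 array 8, where the other CCN2 arrays lay between 8.48 and 8.50. Cars2 had 5.99 on control array 4, where the other control arrays lay between 6.34 and 6.40. Pars2 had 4.68 on control array 1, where the other control arrays lay between 5.06 and 5.10.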

How the results depend on the processing

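No paired analysis was possible because the array numbers in the titles run through all groups and none is shared. The count of cytosolic synthetases higher after CCN2 stayed between 12 (median scaling) and 16 under the 8 other settings, and between 13 and 16 with 1 array left out. All 18 cytosolic changes after CCN2 stayed positive under these settings and with any 1 array left out. Median scaling moved the median of all genes after CCN2 to -0.14, and relative to it the cytosolic median was 0.50 and the mitochondrial one -0.08. It ended the calls of Hars, Sars (0.11), Vars (0.11) and Wars (0.14), and the share of called genes that were higher became 32.3% (46.0% with quantile normalisation) after CCN2, 30.7% (43.5%) after GDF15 and 62.1% (52.0%) in GDF15 against CCN2. Mitochondrial synthetases lower after CCN2 numbered 6 under median scaling (Vars2 with Cars2, Fars2, Mars2, Sars2 and Tars2), 2 under the authors' values, no background correction, an offset of 50 and the mean of all probes, and 1 to 2 with 1 array left out (higher 1 to 1). After GDF15, cytosolic calls ranged from 2 to 4 with 1 array left out, and 0 mitochondrial enzymes were higher and 2 lower under median scaling; leaving out 1 array gave 0 to 2 higher and 0 to 1 lower. In GDF15 against CCN2, cytosolic enzymes lower numbered 8 under median scaling, 9 without a detection filter, and 8 to 12 with 1 array left out. Mitochondrial enzymes higher in that comparison numbered 1 under median scaling and without a detection filter and 0 to 2 with 1 array left out, and those lower numbered 0 under median scaling and with the 2 groups alone and 0 to 2 with 1 array left out. Lyz1, a macrophage marker, changed by 0.36 after GDF15 over the mean of all its tested probes, and by -0.08 with its brightest probe. The causes were not tested. Dim probes such as Hars, Nars2, Farsa and Cars limit what could be detected.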
